A study of Homo sapiens with 76 samples.

Results

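The hnRNP genes, the SR genes and the genes of the polypyrimidine tract binding proteins (PTB) encode the main regulators of splice site choice, and 35 of the 17513 genes in the table were taken for them by symbol. These are 22 symbols beginning with HNRNP, one of which, HNRNPU-AS1, is an antisense transcript and no hnRNP gene, 10 beginning with SRSF and a number, and PTBP1, PTBP2 and PTBP3, without symbols that end in P and a number, as numbered pseudogenes do. The members' messenger RNA was counted in 76 single HEK293 cells, a human line first derived from embryonic kidney, grown in DMEM with glutamine and fetal calf serum. No cell was treated, no second group exists and the labels name no separate cultures, so the cells form 1 sample and the values below are described without tests. Cells were lysed on a microfluidic chip together with 20000 spike-in RNA molecules per cell. Unique molecular identifiers (UMIs) at the 5' end of each cDNA let every captured molecule count once.

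hnRNP proteins coat nascent transcripts, and many of them repress nearby splice sites or exons. SR proteins carry a domain rich in arginine and serine, bind exonic enhancers and recruit the splicing machinery. Cells balance both groups, and many of their genes hold conserved exons whose inclusion leads the transcript to decay. Counts of 5' ends, as here, do not separate such isoforms from productive ones.

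The promoters of the 2 pairs with leading roles in the correlations below are shown, since the assay counts transcripts from their 5' ends. HNRNPR and SRSF5 had the highest correlation of any pair of members, and PTBP1 with SRSF3 the highest that involves PTBP1. Each run goes from 250 bases before the RefSeq start to 50 after it, on the strand of the gene in build GRCh38.p14: HNRNPR chr1:23344235-23344534 (minus strand), SRSF5 chr14:69766892-69767191 (plus), PTBP1 chr19:797202-797501 (plus, the first of its listed starts) and SRSF3 chr6:36594112-36594411 (plus). Capitals mark the motifs searched on both strands.
HNRNPR: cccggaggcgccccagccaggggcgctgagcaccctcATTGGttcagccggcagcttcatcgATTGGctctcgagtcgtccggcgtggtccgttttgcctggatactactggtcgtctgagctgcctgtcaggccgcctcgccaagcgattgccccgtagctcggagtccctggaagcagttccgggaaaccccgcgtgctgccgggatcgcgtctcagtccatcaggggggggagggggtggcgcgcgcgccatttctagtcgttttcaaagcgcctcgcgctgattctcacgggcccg
SRSF5: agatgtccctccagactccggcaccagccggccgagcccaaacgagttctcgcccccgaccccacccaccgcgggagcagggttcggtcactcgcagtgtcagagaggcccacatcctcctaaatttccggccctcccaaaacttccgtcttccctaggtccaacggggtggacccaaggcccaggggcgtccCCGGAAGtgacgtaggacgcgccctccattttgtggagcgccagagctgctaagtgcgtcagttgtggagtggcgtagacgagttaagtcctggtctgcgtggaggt
PTBP1: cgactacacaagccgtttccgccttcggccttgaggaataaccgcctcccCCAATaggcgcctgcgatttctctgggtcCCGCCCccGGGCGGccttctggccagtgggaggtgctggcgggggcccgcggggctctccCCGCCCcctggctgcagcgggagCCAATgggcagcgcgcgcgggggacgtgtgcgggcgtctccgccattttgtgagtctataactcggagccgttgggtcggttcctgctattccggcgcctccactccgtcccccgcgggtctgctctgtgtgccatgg
SRSF3: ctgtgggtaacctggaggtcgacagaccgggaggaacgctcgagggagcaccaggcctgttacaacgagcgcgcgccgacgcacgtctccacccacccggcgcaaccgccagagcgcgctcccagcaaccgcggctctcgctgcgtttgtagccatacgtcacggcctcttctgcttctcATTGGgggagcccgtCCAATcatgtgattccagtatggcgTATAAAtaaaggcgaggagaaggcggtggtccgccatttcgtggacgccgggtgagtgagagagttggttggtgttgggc
The motifs were the GC box GGGCGG, the CCAAT box, read as CCAAT or on the other strand as ATTGG, the TATA box TATAAA, the ETS core CCGGAAG and a CGCG element CTCGCGA. SRSF3 held TATAAA at position -30, with CCAAT at -55 and its reverse at -70. HNRNPR held the reverse CCAAT at positions -213 and -188 from the start. SRSF5 held only the ETS core, at position -57, and PTBP1 held CCAAT at -200 and -88 with GC boxes between them. RefSeq promoters were matched for 32 of the 35 members, 46 windows in all; HNRNPA1, SRSF2 and HNRNPU-AS1 had no entry. The median GC content was 65.5% for the members' windows and 58.7% for all windows. Its part in the motif counts was not tested. A GC box lay in 69.6% of the members' windows and in 44.95% of all 35116 windows of that length. CCAAT lay in 45.7% against 34.6%, TATAAA in 13.04% against 11.5%, the ETS core in 13.04% against 10.3% and the CGCG element in 8.70% against 2.35%. The last count rests on 4 members' windows, those of HNRNPH3, HNRNPK, HNRNPUL1 and SRSF4, and windows of 1 gene can overlap.

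A cell gave between 7305 and 43392 gene UMIs (median 20966). All 6 markers looked up for the line were found, from UCHL1 and VIM in 70 cells each to KRT8 in 19. Markers of cells that should be absent gave 5 UMIs for blood (HBA1 only), 1 for liver (2 genes) and 13 for fibroblasts (2 genes). Other listed markers of such cells, among them PTPRC, CD3E and LYZ, were not analysed here.

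Together the 35 genes gave 13588 UMIs, or 0.784% ± 0.165 of a cell's UMIs (SD over 76 cells, lowest 0.442%, highest 1.25%); every ± below is likewise an SD across the 76 cells. The 22 HNRNP symbols supplied 55.0% of the members' UMIs (54.8% without HNRNPU-AS1), SR genes 41.7% and PTB genes 3.38%. HNRNPA1, SRSF7 and SRSF3 alone made up 34.02%. In a single cell there were 0.667 to 4.10 UMIs of HNRNP symbols for each SR UMI (median 1.30), and 18 to 31 of the members had a UMI (median 26). Since each UMI stands for 1 captured 5' end, levels were compared between genes without division by transcript length. How well long RNAs are captured to their 5' end was not tested. A UMI was seen in at least 38 of the 76 cells for 27 of the 35 members, and for 16.7% of all 17513 genes.

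**Figure D1:**
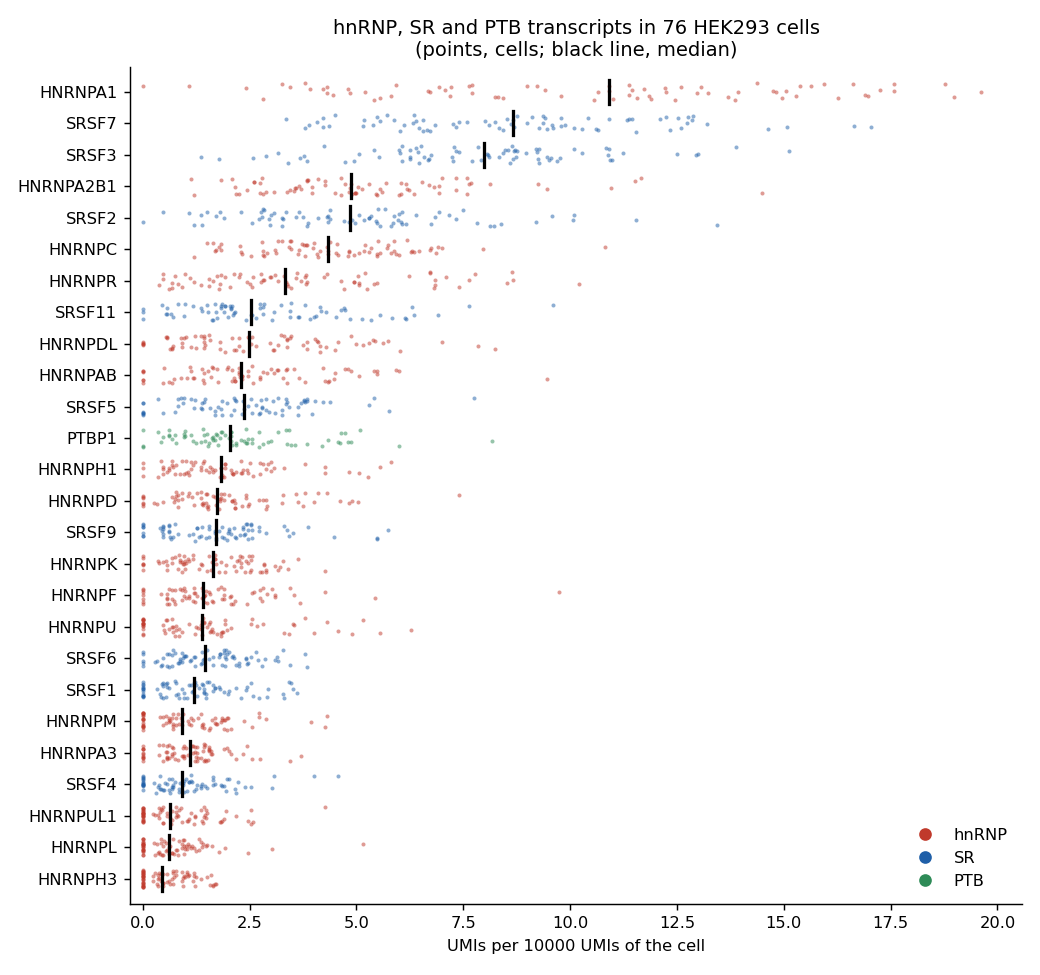
UMIs per 10000 UMIs of the cell (horizontal axis) for the 26 members averaging 1 UMI or more, ordered by total UMIs; each point is 1 of 76 cells and the black line is the median. HNRNPA1 spreads from 0 to 19.6 with a median of 10.9, while SRSF7 keeps between 3.36 and 17.05 and SRSF3 between 1.37 and 15.1.

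Within the A/B group, which took 24.6% of the members' UMIs, HNRNPA1 led. HNRNPA1, a shuttling repressor of exons, gave 0 to 73 UMIs per cell with a median of 19.5 (23.2 ± 15.6) and ranked 149th by mean among all genes. Set against the spike-in counts, this is an estimate of 178 HNRNPA1 molecules for the median cell (0 to 609), if cellular and spike-in RNA are captured alike. One cell had no HNRNPA1 UMI although it held 16117 UMIs, 105 of them from members and 8 from HNRNPA2B1. HNRNPA2B1, its close relative with a role in RNA transport, gave 2 to 29 UMIs (median 9.5, mean 11.4 ± 6.68) and was seen in every cell. HNRNPAB had 0 to 16 UMIs (median 5, mean 5.82 ± 4.18). The remaining A/B members were rarer: HNRNPA3 averaged 2.50 ± 1.97 UMIs, HNRNPA0 0.947 ± 1.33, and HNRNPA1L2, a near-copy of HNRNPA1, gave 12 UMIs in 11 cells. HNRNPA1 has many processed pseudogenes: the 22 numbered HNRNPA1 rows outside the members gave 190 UMIs in all, 93 of them HNRNPA1P7. Shares of HNRNPA1 and HNRNPA1P7 had a Spearman rho of 0.51 across cells, and the split of near-identical reads between them is uncertain.

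Other hnRNP genes covered a wide range. HNRNPC, which binds uridine-rich stretches of nascent RNA, gave 2 to 30 UMIs (median 8, mean 9.82 ± 5.92), with none of the 76 cells at 0. HNRNPR, a relative of SYNCRIP, gave 1 to 33 (median 7, mean 9.05 ± 7.65). HNRNPDL, related to the AU-rich element binder HNRNPD, gave 0 to 28 (median 5, mean 6.71 ± 6.14). HNRNPC and HNRNPR were thus present in every cell, and HNRNPDL in 71. Next came HNRNPH1 (4.37 ± 3.48) and HNRNPF (3.71 ± 2.92), which bind runs of guanines, HNRNPD (4.21 ± 3.21), the poly(C) binder HNRNPK (3.72 ± 2.73) and HNRNPU (3.58 ± 3.56), a nuclear scaffold protein. HNRNPM (2.63 ± 2.34), HNRNPUL1 (1.84 ± 1.97), HNRNPL (1.67 ± 1.74), a binder of CA repeats, and HNRNPH3 (1.28 ± 1.40) were lower. The SDs of all these genes exceed the gaps between neighbours in this order. They describe the spread between cells and not the error of a mean. HNRNPH2 was seen in 35 cells, HNRNPLL, known for its role in T cell splicing, in 17 cells, and HNRNPUL2 in 7 cells. The antisense transcript HNRNPU-AS1 was seen in 13 cells; the strand rule of the counting is not given in the sources used here, so its reads and those of HNRNPU may be mixed.

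Among SR genes SRSF7 and SRSF3 were the most abundant. SRSF7 gave 4 to 53 UMIs per cell (median 18.5, mean 19.9 ± 11.5) and SRSF3 1 to 43 (median 16, mean 17.7 ± 9.95). Both proteins help the export receptor NXF1 carry messenger RNA out of the nucleus, and both were seen in all 76 cells. SRSF2, a marker protein of nuclear speckles, gave 0 to 28 UMIs (median 10, mean 11.2 ± 7.23). SRSF11 gave 0 to 22 UMIs (median 5, mean 6.72 ± 5.42), and SRSF5 also 0 to 22 (median 5, mean 5.66 ± 4.41). These were seen in 73 and 69 cells. SRSF9 (4.11 ± 3.65), SRSF6 (3.58 ± 2.74), SRSF1 (3.08 ± 3.20), the founding member of the family, and SRSF4 (2.25 ± 1.805) followed. SRSF12, known as an antagonist of other SR proteins, gave 20 UMIs in 14 cells (18.4% of cells, exact 95% interval 10.5% to 28.97%). Intervals here cover counting error only. SRSF8 and SRSF10 were not analysed here.

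PTBP1 dominated its family. PTBP1, a repressor that binds pyrimidine tracts, gave 0 to 19 UMIs (median 5, mean 5.21 ± 3.87) and was seen in 73 cells. PTBP3 gave 38 UMIs in 23 cells (30.3%, exact 95% interval 20.2% to 41.9%). PTBP2, the form known from neurons, whose messenger RNA PTBP1 is known to send to decay in other cells, gave 25 UMIs in 16 cells (21.1%, exact 95% interval 12.5% to 31.9%). All 16 cells with PTBP2 also had PTBP1, but so did 73 of all 76 cells, so that overlap was nearly fixed in advance. In 5 cells all 3 were seen.

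The spread between cells was measured as a Pearson dispersion, the squared deviation from the count expected from a cell's total over that expectation, which is 1 for counting noise alone. For spike-in RNAs, which were added to every cell in the same amount, the expectation came from the cell's spike-in total instead. Their dispersion reached 2.20 at most among the 36 with a mean of at least 1 UMI. Of the 26 members that abundant, 8 lay above every spike-in, and of all 2810 genes with that mean 21.6% did. At a minimum mean of 3 UMIs the members sat at the background, with 10 of 20 above every spike-in against 49.9% of all genes. The 8 were HNRNPA1 (4.75), HNRNPR (3.07), HNRNPU (2.75), HNRNPDL (2.74), SRSF11 (2.58), SRSF2 (2.395), SRSF7 (2.25) and HNRNPA2B1 (2.22). Just below lay HNRNPD (2.08) and HNRNPAB (2.05). HNRNPA3 had the lowest dispersion, 1.01. The other 9 members fell under the minimum mean and were not placed. The median dispersion was 1.84 for the 26 members and 1.76 for all genes tested. As dispersion grows with abundance and the members were more abundant (median of the means 4.29 UMIs against 2.32), the excess squared coefficient of variation, with counting noise subtracted, was also taken. Its median was 0.148 for members and 0.242 for all genes tested. This measure depends on abundance too. Among spike-ins it was 0.609 at a mean of 1.04 UMIs (ERCC-00144) and 0.0337 at 24.4 (ERCC-00009). The medians therefore do not show whether members vary less than other genes of like abundance. Set against spike-ins with a mean within 2 times their own, HNRNPA1 (0.157), HNRNPDL (0.287), HNRNPR (0.237), SRSF11 (0.229) and SRSF2 (0.0967) exceeded every one, while 11.7% of all genes tested did. HNRNPA1 stood clear of its comparison, as its 8 spike-ins ranged from 0.0158 to 0.0504. SRSF2 stood only just above, at 0.0967 against a highest spike-in of 0.0920.

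**Figure D2:**
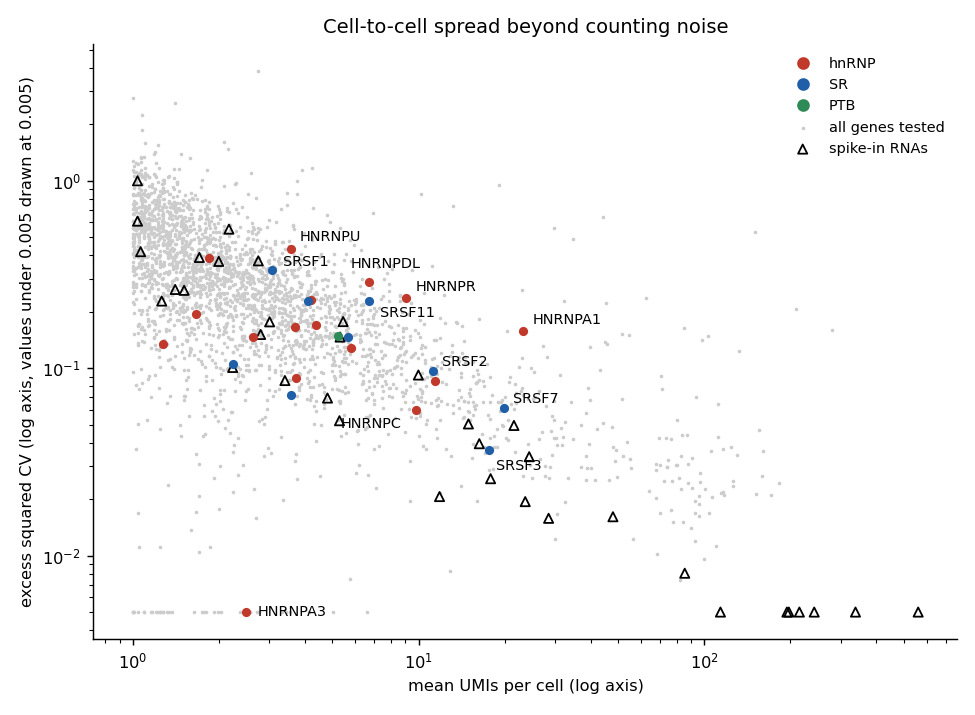
Excess squared coefficient of variation (vertical log axis) against mean UMIs per cell (horizontal log axis) for 2810 genes (grey), 36 spike-in RNAs (triangles) and 26 members (coloured). HNRNPA1 lies at 0.157 above spike-ins of like abundance, while SRSF3 (0.0367) lies among them.

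Members varied together weakly across cells. The median Spearman rho over the 325 pairs of 26 members was 0.097 against 0.014 over all pairs of the 2810 genes, each gene taken as its share of the cell's UMIs. A rho of at least 0.3 was found for 24 pairs of members (7.38%), and for 1.16% of all pairs. No pair of members had a rho of -0.3 or below, where 0.717% of all pairs did. All values come from the same 76 cells and depend on their shared totals, so they describe these cells only. Among the 20 members with a mean of at least 3 UMIs, the highest pairs were HNRNPR with SRSF5 (0.47), HNRNPH1 with SRSF5 (0.46), HNRNPDL with HNRNPR (0.40) and PTBP1 with SRSF3 (0.39). HNRNPA3, which lies under that mean, had 0.42 with HNRNPH1 and 0.39 with HNRNPF, 2 pairs picked after their values were seen. The lowest were HNRNPAB with SRSF1 (-0.25) and HNRNPF with PTBP1 (-0.24). HNRNPR had the highest median rho with the other 25 members (0.21, positive with 24 of them) and HNRNPA1 the lowest (-0.0080, positive with 11). Pairs of close relatives differed in rho. It was 0.31 for SRSF3 with SRSF7, 0.33 for HNRNPA2B1 with HNRNPA3 and 0.25 for HNRNPR with SYNCRIP. It was 0.18 for HNRNPH1 with HNRNPF and 0.13 for HNRNPD with HNRNPDL. It was -0.027 for SRSF1 with SRSF9, -0.0080 for HNRNPA1 with HNRNPA2B1 and -0.096 for HNRNPK with PCBP2. Counting noise pulls rho toward 0 at low means, such as 3.08 UMIs for SRSF1. A low rho there does not show that relatives vary apart. With the ribosomal protein share of each cell regressed out, the median over members was 0.024, against 0.0091 for all pairs.

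**Figure D3:**
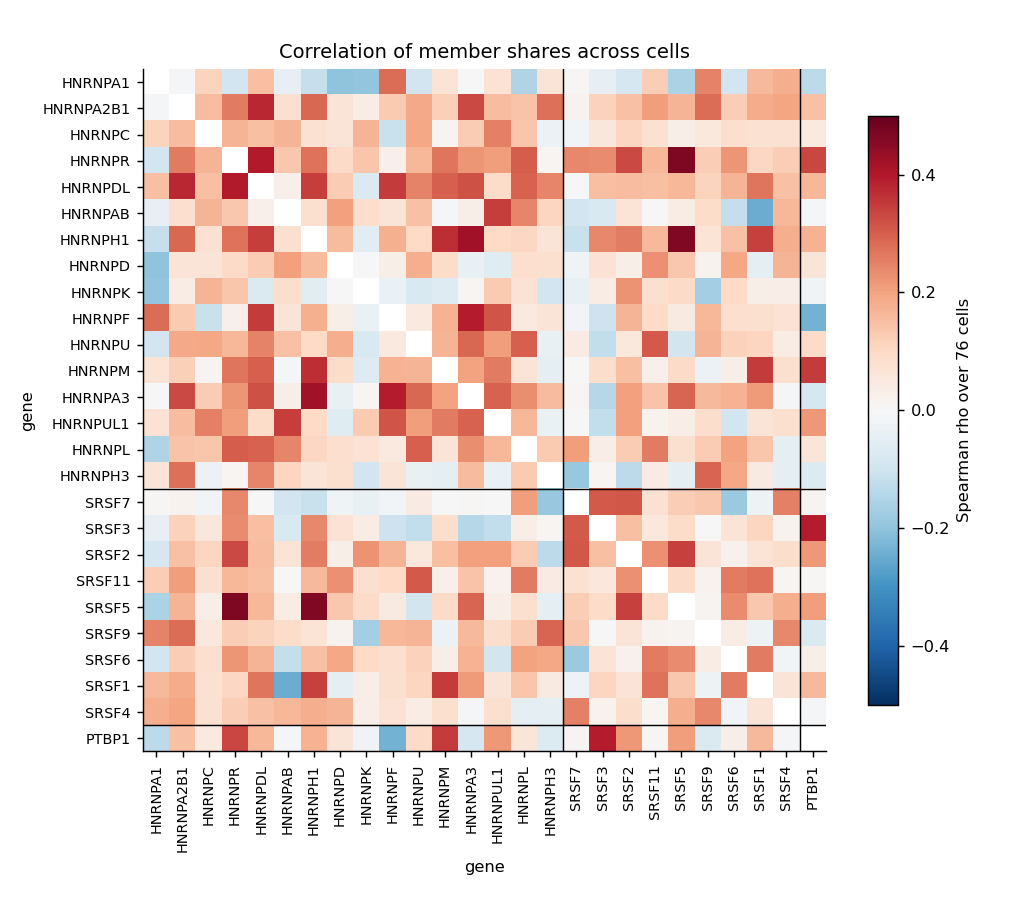
Spearman rho over 76 cells between the shares of 26 members (both axes list genes; black lines separate hnRNP, SR and PTB genes). HNRNPR and HNRNPDL are red across most of their rows, while the row of HNRNPA1 is pale or blue for most hnRNP genes.

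The members' summed share was higher in cells with a higher share of S phase genes, those of DNA replication. The sum had a rho of 0.51 with the summed share of 44 S phase genes and of 0.10 with that of 53 G2 and M phase genes. Of the 26 members, 25 had a positive rho with the S phase share, as did 1721 of 2779 genes outside that list. The medians were 0.22 and 0.046. At least 0.3 was reached by 6 members, HNRNPR (0.40), HNRNPDL (0.38), HNRNPF (0.34), HNRNPL (0.33), SRSF11 (0.32) and HNRNPA3 (0.31), and by 5.0% of genes outside the list. None was at -0.3 or below, where 1.98% of genes were. The ribosomal protein share moved the other way with both: its rho was -0.55 with S phase genes and -0.67 with the members' sum. Of the 26 members, 25 had a negative rho with it, the lowest being HNRNPR (-0.60) and the exception HNRNPA1, and 1890 of all 2810 genes did; the medians were -0.29 and -0.082. With that share regressed out, HNRNPF alone of the 26 kept a rho of at least 0.3 with the S phase share, as did 1.15% of genes outside the list, and HNRNPR had 0.096. HNRNPR and HNRNPDL also had a rho of 0.47 and 0.38 with the cell's total UMIs; they were the 2 members at 0.3 or above, as were 7.86% of all genes tested.

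PTBP1 had its higher rho with the genes of mitosis. Its rho was 0.53 with the G2 and M phase genes' share and 0.010 with that of S phase genes. It was the 1 member at 0.3 or above with the G2 and M phase share, a level that 2.41% of genes outside that list reached. SRSF2 followed at 0.29, and 0 members lay at -0.3 or below, against 1.36% of genes. With the ribosomal protein share regressed out PTBP1 still had 0.45 and was the 1 member at 0.3 or above (1.58% of other genes). The members' median rho then went from 0.052 to -0.084, against 0.00093 for genes outside the list. In that setting 1 member lay at -0.3 or below, and the share of other genes there is not given here. The 5 genes most like PTBP1 across cells were FOS (0.46), an immediate early transcription factor gene, TAF1D (0.43), DEPDC1 (0.43), ARL6IP1 (0.42) and KPNA2 (0.41), a nuclear import receptor gene that is in the G2 and M phase list. PTBP1 was singled out after its values were seen.

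**Figure D4:**
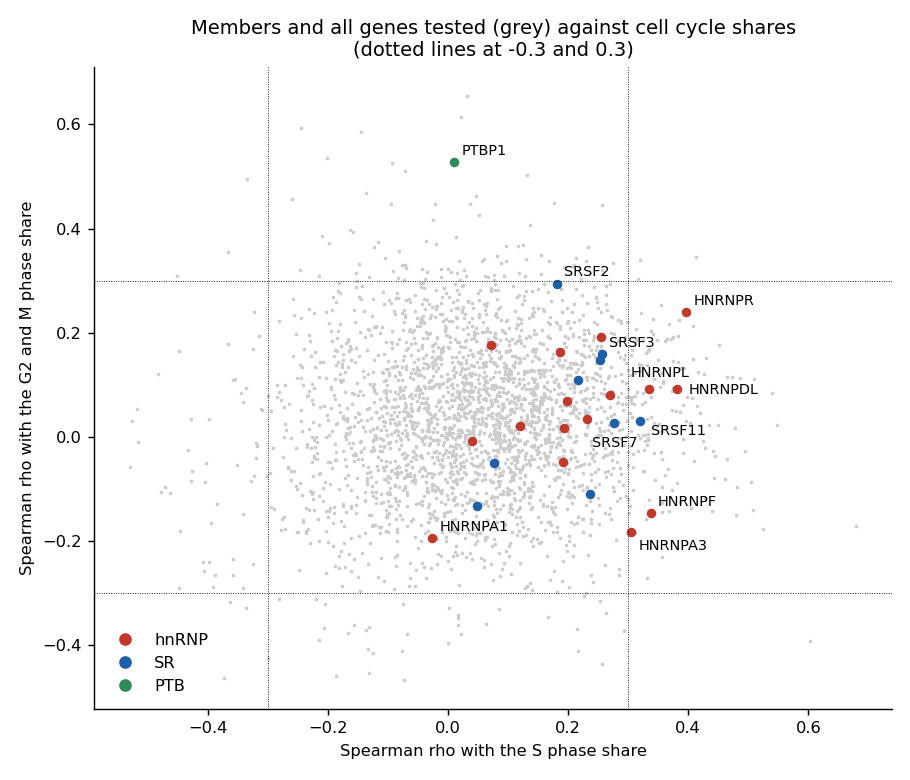
Spearman rho over 76 cells with the S phase share (horizontal axis) and the share of G2 and M phase genes (vertical axis) for members (coloured) and 2810 genes (grey), with dotted lines at -0.3 and 0.3. Most members lie to the right of 0 and PTBP1 lies alone among them at 0.53 on the vertical axis.

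HNRNPA1 was lower in cells with a higher share of mitochondrial RNA. Its rho with the summed share of mitochondrial genes was -0.68, the second lowest of 2787 genes outside the mitochondrial genome after RPS3 (-0.69). It was the 1 member at -0.3 or below, where 5.85% of these genes lay, and 0 members were at 0.3 or above, where 3.19% lay. The other 25 members ranged from -0.25 to 0.22. With each of the 13 mitochondrial messenger RNAs HNRNPA1 had a negative rho, from -0.74 for MT-CO3 to -0.43. With mitochondrial UMIs left out of the scale rho was -0.66, then the lowest of the 2787 genes. When both were scaled by spike-in UMIs, where a cell's RNA content enters both, rho was 0.0044, the 114th lowest, while the median gene had 0.26. The genes most like HNRNPA1 were RPL13 (0.77), RPL3 (0.60) and RPL8 (0.58), which encode ribosomal proteins, YBX1 (0.66), an RNA-binding protein gene, and CHCHD3 (0.59), a gene of mitochondrial inner membrane structure. Its rho with the summed ribosomal protein share was only 0.14, and with the sum of the other members -0.017. The cell with no HNRNPA1 UMI had a mitochondrial share of 8.41%, the 14th highest of 76. HNRNPA1 and these genes were singled out after their values were seen.

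**Figure D5:**
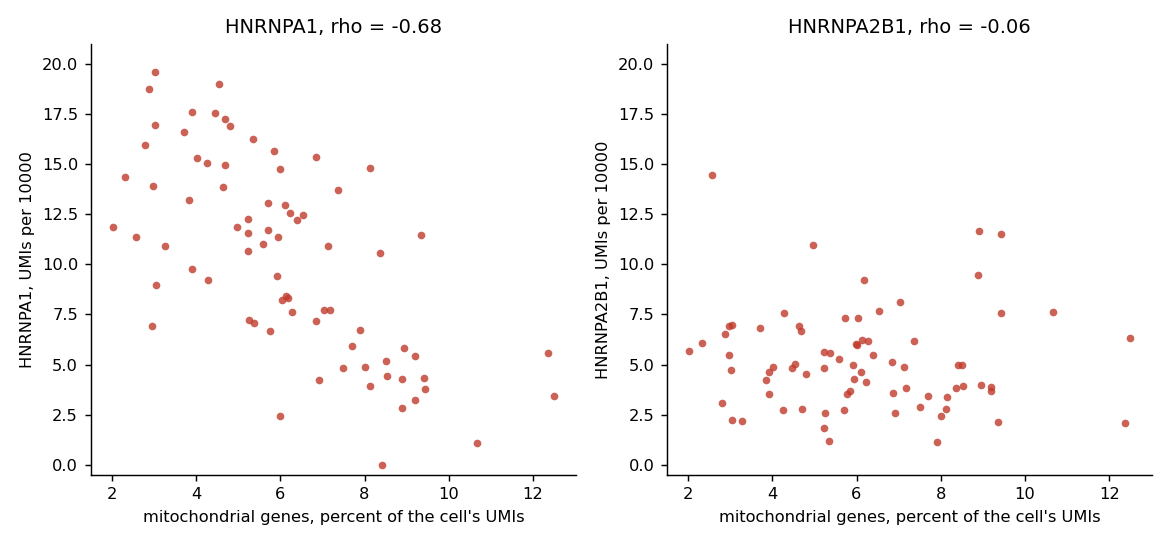
UMIs per 10000 of HNRNPA1 (left) and HNRNPA2B1 (right) on the vertical axes against the percent of the cell's UMIs from mitochondrial genes, 1 point for each of 76 cells. HNRNPA1 falls along the axis (rho -0.68) and HNRNPA2B1 shows no such slope (rho -0.063).

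For the 3 members of highest excess spread at a mean of at least 3 UMIs, the most similar genes were looked up. Only HNRNPDL (0.287) exceeded every spike-in of like mean. HNRNPU (0.435) and SRSF1 (0.335) lay within the range of theirs, which reached 0.552, so their excess is not set apart from technical spread. HNRNPDL was most like BAZ1A (0.53), USP1 (0.53), CHCHD1 (0.51), RAC1 (0.51) and DEK (0.49). BAZ1A and DEK act on chromatin and USP1 is a deubiquitinase of DNA repair. HNRNPU was most like LRR1 (0.39), G3BP2 (0.39), SPDL1 (0.38), KLHL23 (0.37) and DNM1L (0.36), and the genes most like SRSF1 included EIF4H (0.42), MAP7D3 (0.41), CCDC124 (0.39) and ADAR (0.38). These values are low and rest on few UMIs per cell.

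Other genes of splicing control were counted in the same way, against the shares of all genes given above. Of 22 SR-related genes 19 were analysed here and 18 had a mean of at least 1 UMI; LUC7L3 (13.5 ± 9.01 UMIs), SON (8.46 ± 6.16), a speckle scaffold gene, RBM39 (6.79 ± 6.02) and SRRM1 (5.64 ± 4.68) led. Of these 18 genes, 8 lay above every spike-in dispersion and 7 reached a rho of 0.3 with the S phase share, the highest being BCLAF1 (0.46), LUC7L3 (0.44) and RBM39 (0.40). As for the members, the ribosomal protein share moved opposite to their sum (rho -0.66). hnRNP proteins with other symbols were led by RBMX (10.3 ± 7.40 UMIs), PCBP2 (4.37 ± 2.75) and SYNCRIP (3.61 ± 3.66); 16 of 18 were analysed, 11 had the mean, 0 of them lay above every spike-in, and 1, MATR3 (0.38), reached 0.3 with the S phase share. Among kinases and phosphatases that act on SR proteins, PPP1CA (3.82 ± 3.26), SRPK1 (2.46 ± 2.44) and PRPF4B (2.34 ± 2.80) led, and 0 of the 5 with the mean reached 0.3 with either cell cycle share. In these lists, 0 of the genes analysed had no UMI at all.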

How the data were processed

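The deposited values are whole-number UMI counts, 1 value for each gene in each cell and not normalized. Per the submitters' processing notes the tools included STAR 2.4.0a and cutadapt 1.2.1, and the build was hg19 (GRCh37); how the authors counted UMIs and treated reads that map to several genes is not given in the sources used here. A row called GENE, which repeats column numbers and held 0.197% of all values, was left out, and 80 spike-in rows were kept apart. All 76 columns were matched to cells by title number; 0 pairs of cells held identical values. Depth was 7305 to 43392 UMIs per cell, so rare genes are governed by counting error.

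Shares are counts over the cell's gene UMIs. Dispersions and Spearman correlations were computed over all genes with a mean of at least 1 UMI (Python 3.11.15, numpy 2.4.6, scipy 1.17.1) and tested on simulated data. A correlation was called at 0.3 or -0.3. Named are every member, the 2 to 4 most abundant genes of each other list, and the 5 genes most like the 3 members of highest excess spread at a mean of at least 3 UMIs; other named genes were chosen after their values were seen, and a few genes the rule names, with 1 list, are not reported here. Detection intervals are exact Clopper-Pearson. Members, gene lists and thresholds were chosen with earlier results of these data known. Alternatives covered scale, minimum mean, shallow cells, correlation type and tag collisions. Promoters came from RefSeq (GRCh38.p14) and were used for sequence only, since the counts rest on another build.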

Additional observations from a re-analysis of the deposited data

How the results depend on the processing

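No paired analysis was possible because there is 1 group. Over 53 alternatives for 10 values, 24 for the main values and 10 for PTBP1, HNRNPR and HNRNPDL left counts and the median rho within 1.5 times of the reported value, the members' share within its SD over cells and a single rho within its approximate standard error. Another 13 for the main values and 5 for PTBP1, HNRNPR and HNRNPDL went beyond these limits. In 1 more the sign changed, for HNRNPA1 with the mitochondrial share under spike-in scaling. Scaling by spike-in UMIs lets the amount of RNA in a cell count toward every gene and moved genes outside the members too. Under it 17 members lay above every spike-in dispersion (46.8% of all genes), the median rho between members was 0.35 (0.18 over all pairs), and 19 members reached 0.3 with the G2 and M phase share (52.9% of other genes) and 25 with the S phase share (58.04%). The rho of HNRNPA1 with the mitochondrial share was then 0.0044, where the median gene had 0.26 and HNRNPA1 ranked 114th from the lowest. With a minimum mean of 0.5 UMI 5 members lay above every spike-in dispersion (7.51% of all genes), with a minimum of 3 UMIs 10 of 20 did (49.9%), and with spike-ins of like mean as the measure 5 did (11.7%). With ribosomal protein and mitochondrial genes left out of the total, the members took 1.21% of UMIs, their median rho was 0.064 (0.0084 over all pairs), and 3 members, HNRNPDL, HNRNPL and HNRNPR, reached 0.3 with the S phase share (2.63% of other genes). With the ribosomal protein share regressed out, an alternative chosen after seeing the data, the median rho was 0.024 (0.0091 over all pairs) and 1 member reached 0.3 with the S phase share (1.15%). For the G2 and M phase share, PTBP1 and SRSF2 were the 2 members by Pearson correlation of log2 values (2.19% of other genes) and the 2 without the 5 shallow cells (1.94%). The cause of these shifts was not tested. At these depths, members with under 1 UMI per cell allow no statement on their spread.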

Other observations

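Of 28 splicing regulators of which many are known for tissue-limited roles, 20 were analysed here, and 3 had a mean of at least 1 UMI, as did 16.05% of all genes. KHDRBS1, which is widely expressed, averaged 3.36 ± 3.68 UMIs (SD, 76 cells), CELF1 2.49 ± 2.57 and MBNL1 1.38 ± 1.97. KHDRBS1 (rho 0.37) and CELF1 (0.32), 2 of these 3 genes, passed a rho of 0.3 with the G2 and M phase share. Of genes outside the G2 and M phase list 2.41% did, and 3 genes are few for a comparison. Their rho with the ribosomal protein share was -0.41 and -0.57 in the same order. Values with that share regressed out are not given for them. QKI was seen in 39 cells, TIAL1 in 36 and RBM38 in 32. The neuronal regulators NOVA1 and RBFOX3 were each seen in 9 of 76 cells, with 13 and 14 UMIs, and ELAVL2 in 8 cells with 11 UMIs. RBFOX2, which is expressed in many tissues, was seen in 24 cells. The epithelial regulator ESRP2 was seen in 6 cells.

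Of 6 genes of nuclear transport that serve these proteins, 3 had a mean of at least 1 UMI: NXT1 averaged 2.07 ± 2.08 UMIs, ALYREF 1.53 ± 2.00 and TNPO1, an import receptor of HNRNPA1, 1.14 ± 1.37. TNPO3, the import receptor of SR proteins, was seen in 29 cells.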
